A study of Homo sapiens with 2 samples.

Results

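The transcripts of the mitochondrial genome were examined in HL60-EIF2S3 cells. All genes listed with a locus on the mitochondrial chromosome were taken, which gave 37 of the 58302 genes in the table: 13 mRNAs, 2 rRNAs and 22 tRNAs. The host line, HL60, is an established line from human promyelocytic leukemia, and both cultures carry an EIF2S3 transgene under the Retro-X Tet-Off Advanced system. Its product is the gamma subunit of eIF2, the factor that brings initiator tRNA to the cytosolic ribosome. In the cells labelled DOX(-), which were untreated, the transgene is on by design. In the cells labelled DOX(+), doxycycline was added and the transgene is off by design. There was 1 RNA-seq library per condition, so no difference below has a replicate check and no p-value was made. The dose and duration of doxycycline, and whether the line is a clone or a pool, are not stated in the labels. EIF2S3 itself was at 132.9 FPKM (fragments per kilobase, scaled to library size) in DOX(-) against 126.2 in DOX(+), so its level did not separate the labels, and the conditions are named as the libraries labelled DOX(-) and DOX(+). Every direction below rests on those labels.

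Sequencing depth was 16577645 fragments in DOX(-) and 18521279 in DOX(+). The promyelocyte serine protease genes were abundant, with CTSG at 689 and 569.8 FPKM and ELANE at 396 and 299 FPKM in DOX(-) and DOX(+), whereas MPO, another promyelocyte marker, was at 0.274 and 0.469 FPKM. Of 6 tested genes on the list for HL60 cells, which held MYC beside the promyelocyte markers, MYC alone passed 1.5-fold. It was at 29.5 FPKM in DOX(-) against 2.06 in DOX(+). Of 12 markers of other cell types, 1 reached 1 FPKM (PECAM1, which leukocytes also express), and CD3D, CD3E, MS4A1, HBB, EPCAM, KRT19, COL1A2 and CDH5 were listed at 0 in both libraries.

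Human mitochondrial DNA is a small circle whose genes are read as long precursors from both strands. Most genes lie on 1 strand, here the + strand of the reference sequence, and are transcribed from the heavy strand. MT-ND6 and a minority of tRNAs lie on the - strand. In most places tRNAs sit between the mRNAs and rRNAs, and their excision by RNase P and RNase Z releases the flanking RNAs. The mRNAs encode core subunits of the respiratory chain and of ATP synthase, and the rRNAs and tRNAs serve the mitochondrial ribosome. Doxycycline, a tetracycline, is known to inhibit translation by mitochondrial as well as bacterial ribosomes. In this design the presence of doxycycline and the state of the transgene cannot be told apart, and fewer mitochondrial genomes per cell and less RNA per genome cannot be told apart either.

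A selection of tRNA genes on which the results turn is given as DNA of the coding strand, from 5′ to 3′, with the anticodon in capitals. MT-TM and MT-TL1 were the most abundant tRNA genes in the table. MT-TF, MT-TV and MT-TI had the lowest ratios among tRNA genes with at least 50 fragments, MT-TL2 had the lowest ratio of all members, and MT-TC was the sole member with a higher level in DOX(-). Sequences are from GENCODE release 29 on GRCh38.
MT-TM (methionine, chrM:4402-4469, + strand): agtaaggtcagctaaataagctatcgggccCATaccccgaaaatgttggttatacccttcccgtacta
MT-TL1 (leucine, chrM:3230-3304, + strand): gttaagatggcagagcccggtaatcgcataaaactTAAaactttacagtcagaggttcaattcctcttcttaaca
MT-TF (phenylalanine, chrM:577-647, + strand): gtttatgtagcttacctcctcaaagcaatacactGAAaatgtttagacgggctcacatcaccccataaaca
MT-TV (valine, chrM:1602-1670, + strand): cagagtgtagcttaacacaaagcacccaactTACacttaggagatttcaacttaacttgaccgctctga
MT-TI (isoleucine, chrM:4263-4331, + strand): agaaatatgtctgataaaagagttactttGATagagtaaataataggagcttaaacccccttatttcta
MT-TL2 (leucine, chrM:12266-12336, + strand): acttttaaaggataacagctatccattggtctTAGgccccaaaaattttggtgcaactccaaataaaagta
MT-TC (cysteine, chrM:5761-5826, - strand): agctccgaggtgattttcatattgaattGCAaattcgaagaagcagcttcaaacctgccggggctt

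Transcripts of the mitochondrial genome were less abundant in the library labelled DOX(-), and the pooled difference was widest for the tRNAs. Together they took 911636 fragments, or 5.50% of the recovered library total, in DOX(-), against 1268768 fragments, or 6.85%, in DOX(+). The pooled ratio of DOX(-) over DOX(+) was 0.803, with a 95% counting interval of 0.801 to 0.805. This interval, like those below, covers counting error only. The pooled ratio was 0.808 (0.806 to 0.810) for the mRNAs, 0.742 (0.734 to 0.750) for the rRNAs and 0.515 (0.485 to 0.546) for the tRNAs. These intervals do not overlap, but they leave out the spread between genes of a class. Gene by gene the classes overlapped. The mRNAs ranged from 0.585 to 0.973, the rRNAs were at 0.591 and 0.767, and the tRNAs ranged from 0.279 to 8.94. Of 37 members, 36 had a lower FPKM in DOX(-), beside 6152 of the 11525 genes tested with a log2 ratio below 0. By a rule of size, a difference of 1.5-fold or more computed from FPKM + 1, 21 were lower and 1 was higher, against 4.06% of the 11525 genes tested that were lower and 3.11% that were higher. The lower members were 3 mRNAs, 1 rRNA and 17 tRNAs. Of these 21 members, 17 also had a counting interval that excluded 1, and those that did not were tRNAs of few fragments. The median log2 ratio, also computed from FPKM + 1, was -0.31 over the mRNAs, -0.57 over the rRNAs and -0.998 over the tRNAs, beside -0.02 over all genes tested. At 2-fold, 11 members were lower and 1 was higher, against 1.2% and 0.833% of all genes.

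**Figure D1:**
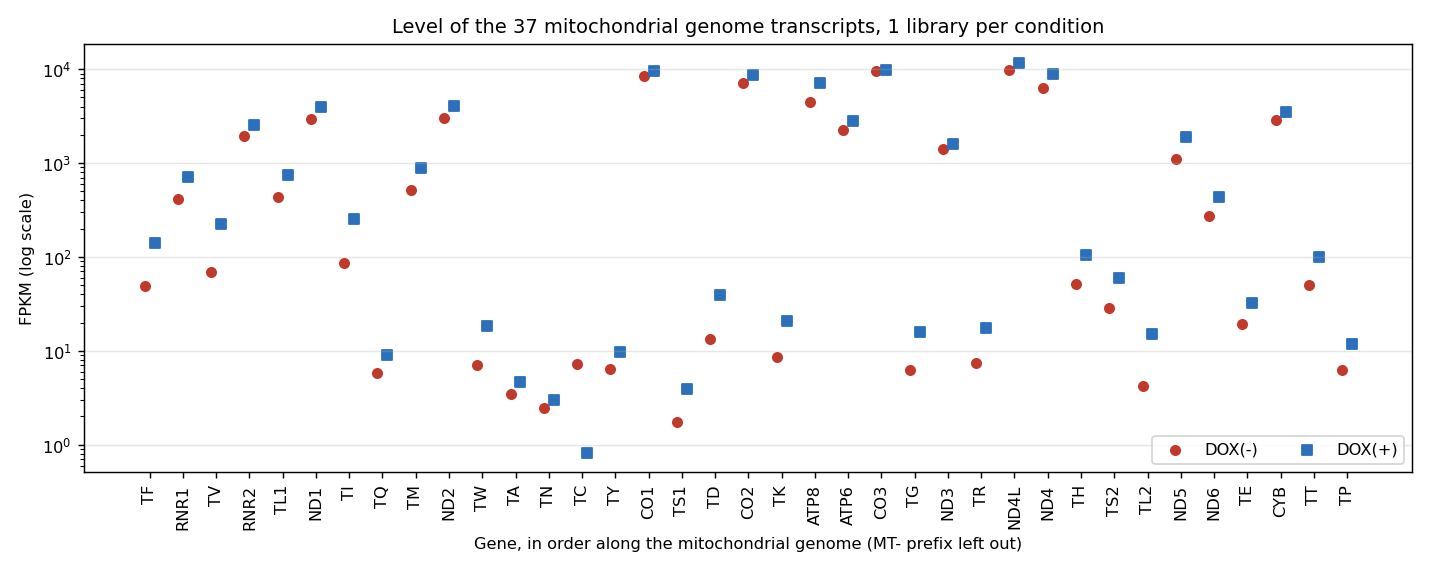
FPKM on a log scale of each of the 37 mitochondrial transcripts in the library labelled DOX(-) (circles) and the library labelled DOX(+) (squares), in order along the genome, with 1 library per condition and no error bars. The circle lies below the square for 36 members, and MT-TC is the exception.

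Pooled by complex, the mRNAs of complex IV, cytochrome c oxidase, differed least, although MT-ND4L and MT-ND3 of complex I differed less than MT-CO2. MT-CO3 was at 9638 FPKM in DOX(-) against 9902 in DOX(+) (ratio 0.973, interval 0.966 to 0.981). MT-CO1, which encodes the catalytic subunit, was at 8450.5 FPKM in DOX(-) against 9636 in DOX(+) (ratio 0.877, interval 0.872 to 0.882). MT-CO2, which encodes the subunit that takes electrons from cytochrome c, was at 7174 FPKM in DOX(-) against 8602 in DOX(+) (ratio 0.834, 0.826 to 0.842). These 3 mRNAs made up 46.4% of all mitochondrial fragments in DOX(-), against 41.6% in DOX(+). A share within the mitochondrial genome does not depend on how the libraries are scaled to each other.

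Complex I, NADH dehydrogenase, has 7 subunits encoded in the mitochondrial genome, and their mRNAs ranged from 0.585 to 0.873 in ratio. MT-ND5, the lowest of all mRNAs by ratio, encodes a proton-pumping subunit and was at 1099 FPKM in DOX(-) against 1878 in DOX(+). Its ratio was 0.585 (interval 0.577 to 0.593). MT-ND6, the mRNA of the - strand, was at 274 FPKM in DOX(-) against 436 in DOX(+), a ratio of 0.628 (0.597 to 0.660). Both were past the 1.5-fold rule. MT-ND4 was at 6332 FPKM in DOX(-) against 8851 in DOX(+) (ratio 0.715). MT-ND1 reached 2926 FPKM in DOX(-) against 3959 in DOX(+) (0.739), and MT-ND2 3034 FPKM in DOX(-) against 4074 in DOX(+) (0.745). The remaining complex I mRNAs differed by less than this. MT-ND4L had 9815 FPKM in DOX(-) against 11519 in DOX(+) (ratio 0.852), and MT-ND3 had 1396 FPKM in DOX(-) against 1599 in DOX(+) (0.873). Pooled over the 7 mRNAs the ratio was 0.726 (0.723 to 0.730), against 0.894 (0.891 to 0.898) for complex IV. The share of complex I mRNAs among mitochondrial fragments was 36.8% in DOX(-) and 40.6% in DOX(+).

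MT-CYB encodes cytochrome b of complex III and was at 2892 FPKM in DOX(-) against 3508 in DOX(+), with a ratio of 0.825 (0.815 to 0.834). The ATP synthase subunit genes MT-ATP8 and MT-ATP6 differed from each other. MT-ATP8 was at 4492 FPKM in DOX(-) against 7072 in DOX(+) (ratio 0.635, 0.623 to 0.648), past the 1.5-fold rule. MT-ATP6 was at 2245 FPKM in DOX(-) against 2777 in DOX(+) (ratio 0.808, 0.795 to 0.822). The level of MT-ATP8 relative to MT-ATP6 was 2.00 in DOX(-) and 2.55 in DOX(+). A nuclear copy, described below, can take reads of MT-ATP6, so this relative level is uncertain.

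In the order of ratios, MT-ND5, MT-ND6, MT-ATP8, MT-ND4, MT-ND1, MT-ND2, MT-ATP6, MT-CYB, MT-CO2, MT-ND4L, MT-ND3, MT-CO1 and MT-CO3 ran from the lowest to the highest. With the fragments of nuclear copies added, as described below, MT-ATP6 was at 0.747 and MT-ND2 at 0.778, so these changed places. Neighbours whose counting intervals overlapped were MT-ND6 and MT-ATP8, MT-ND1 and MT-ND2, MT-ATP6 and MT-CYB, MT-CYB and MT-CO2, MT-ND4L and MT-ND3, and MT-ND3 and MT-CO1. The order of levels was nearly shared by the libraries. MT-ND4L, MT-CO3 and MT-CO1 led in both, and MT-ND6 was last in both. MT-CO2 and MT-ND4 changed places, being 4 and 5 in rank in DOX(-) and 5 and 4 in DOX(+), as did MT-ND3 and MT-ND5, at 11 and 12 in DOX(-) and 12 and 11 in DOX(+).

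**Figure D2:**
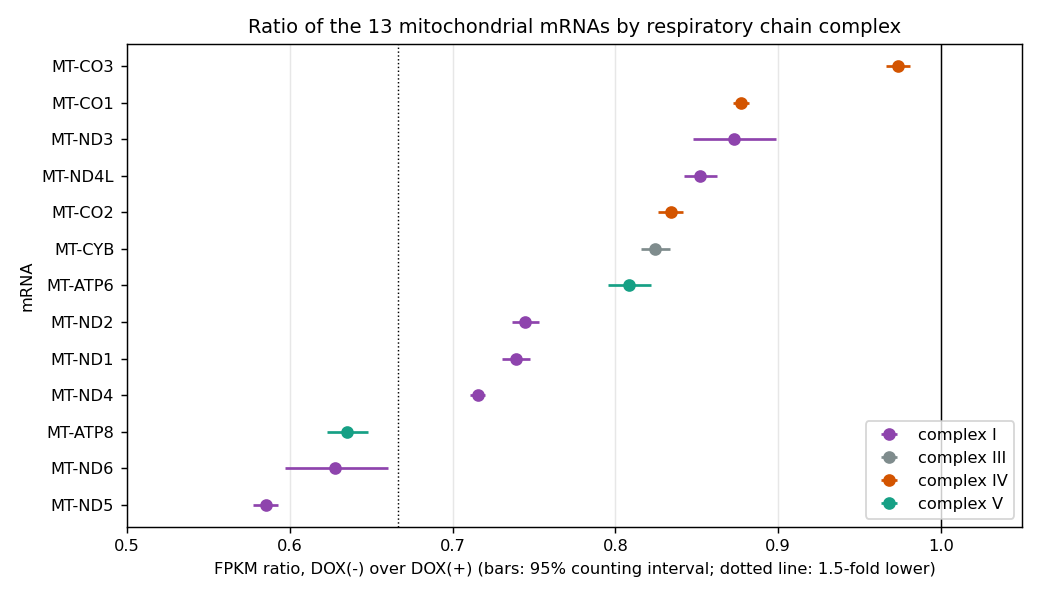
FPKM ratio of DOX(-) over DOX(+) for each of the 13 mitochondrial mRNAs, sorted by ratio and coloured by complex, with 95% counting intervals as bars and 1 library per condition. All lie below 1, MT-CO3 at 0.973 is nearest to it, and MT-ND5, MT-ND6 and MT-ATP8 lie left of the dotted line at 1.5-fold lower.

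Overlapping reading frames limit what the values of these pairs mean. MT-ATP8 and MT-ATP6 share 46 bases and MT-ND4L and MT-ND4 share 7, and a fragment over the shared bases belongs to both mRNAs, which lie on the same bicistronic RNA. The shared stretches are shown with the start codon of the second frame and the last 3 bases of the first in capitals. For MT-ND4L and MT-ND4, 12 bases on either side are included.
MT-ATP8 and MT-ATP6 (chrM:8527-8572, + strand): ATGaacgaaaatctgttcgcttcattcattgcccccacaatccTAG
MT-ND4L and MT-ND4 (chrM:10748-10778, + strand): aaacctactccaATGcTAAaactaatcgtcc
The pairs went opposite ways. The first gene of the pair was lower relative to the second in DOX(-) for MT-ATP8 over MT-ATP6, by a factor of 0.786 (0.766 to 0.806). It was higher relative to the second for MT-ND4L over MT-ND4, by a factor of 1.19 (1.17 to 1.21). How fragments in shared bases were assigned was not given in the sources used here, and its part in these values was not tested. A nuclear copy can also take reads of MT-ATP6. With the fragments of nuclear copies added, the ratio of DOX(-) over DOX(+) was 0.747 for MT-ATP6 and 0.635 for MT-ATP8. The factor of 0.786 is uncertain to that extent, beyond its counting interval.

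The rRNAs form the ribosomal subunits of the organelle, 12S RNA (MT-RNR1) the small and 16S RNA (MT-RNR2) the large. MT-RNR1 was at 417 FPKM in DOX(-) against 705 in DOX(+), a ratio of 0.591 (0.574 to 0.609), past the 1.5-fold rule. MT-RNR2 was at 1941 FPKM in DOX(-) against 2529 in DOX(+), a ratio of 0.767 (0.759 to 0.776). The level of MT-RNR1 was 21.5% of that of MT-RNR2 in DOX(-) and 27.9% in DOX(+), a factor of 0.770 (0.746 to 0.795). Both rRNAs stood below the most abundant mRNAs. Whether the library method removed rRNA or selected polyadenylated RNA was not given in the sources used here, so rRNA and mRNA levels cannot be read as their proportions in the cell.

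Most tRNA genes held few fragments, and their ratios are of unequal precision. The 22 tRNA genes ranged from 2 to 587 fragments in DOX(-) and from 1 to 1118 in DOX(+). The 7 with at least 50 fragments in DOX(-) were all more than 1.5-fold lower there, with counting intervals below 1. MT-TM, which carries methionine, had 587 fragments in DOX(-) and 1118 in DOX(+) (521 FPKM in DOX(-) against 888 in DOX(+)), a ratio of 0.587 (0.530 to 0.649). MT-TL1, a leucine tRNA, had 543 fragments in DOX(-) and 1027 in DOX(+) (437 FPKM in DOX(-) against 739 in DOX(+)), a ratio of 0.591 (0.531 to 0.656). These tRNAs took most of the tRNA fragments in both libraries.

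MT-TV, MT-TI and MT-TF, for valine, isoleucine and phenylalanine, differed about 3-fold. MT-TV had 80 fragments in DOX(-) and 285 in DOX(+) (69.9 FPKM in DOX(-) against 223 in DOX(+), ratio 0.314, interval 0.242 to 0.403). MT-TI had 99 fragments in DOX(-) and 327 in DOX(+) (86.5 FPKM in DOX(-) against 256 in DOX(+), ratio 0.338, 0.267 to 0.425). MT-TF had 58 fragments in DOX(-) and 186 in DOX(+) (49.3 FPKM in DOX(-) against 141 in DOX(+), ratio 0.348, 0.255 to 0.470). The intervals of these 3 overlap one another and lie below those of MT-TM and MT-TL1. MT-TH, for histidine, had 59 fragments in DOX(-) and 135 in DOX(+) (ratio 0.488, 0.353 to 0.668), and MT-TT, for threonine, had 55 in DOX(-) and 122 in DOX(+) (ratio 0.504, 0.359 to 0.698).

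Of the 15 tRNA genes under 50 fragments in DOX(-), 10 were at least 1.5-fold lower and 1 was higher, and 8 of the 15 had counting intervals that included 1. Pooled, they had 141 fragments in DOX(-) and 322 in DOX(+), a ratio of 0.489 (0.398 to 0.598). MT-TL2, the other leucine tRNA, had 5 fragments in DOX(-) and 20 in DOX(+) (ratio 0.279, 0.0819 to 0.767). MT-TD, for aspartic acid, had 15 in DOX(-) and 50 in DOX(+) (ratio 0.335, 0.175 to 0.607), and MT-TS2, for a serine codon pair, 28 in DOX(-) and 65 in DOX(+) (ratio 0.481, 0.297 to 0.760). MT-TW, MT-TG, MT-TK and MT-TR, for tryptophan, glycine, lysine and arginine, had 7 to 10 fragments in DOX(-) and 20 to 27 in DOX(+), with ratios of 0.389, 0.391, 0.414 and 0.426. The interval of MT-TR, 0.163 to 1.00029, included 1. MT-TC, for cysteine, had 8 fragments in DOX(-) and 1 in DOX(+), a ratio of 8.94 with an interval of 1.20 to 397.

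The tRNA genes lie between abundant mRNAs and rRNAs, yet most were listed far below their neighbours. MT-TW, which starts at the base after MT-ND2 ends, was at 0.234% of the level of MT-ND2 in DOX(-) and 0.448% in DOX(+). MT-TM, which ends at the base before MT-ND2 starts, was at 17.2% of it in DOX(-) and 21.8% in DOX(+). Relative to an adjacent long RNA, several tRNAs were lower in DOX(-) by more than counting error. MT-TV relative to MT-RNR2 was lower by a factor of 0.409 (0.319 to 0.524), MT-TI relative to MT-ND1 by 0.458 (0.365 to 0.573), and MT-TF relative to MT-RNR1 by 0.589 (0.438 to 0.792). The factor was nearer to 1 for MT-TM relative to MT-ND2, at 0.788 (0.712 to 0.871), and MT-TL1 relative to MT-ND1, at 0.799 (0.720 to 0.888). MT-TV also adjoins MT-RNR1, whose ratio of 0.591 was below the 0.767 of MT-RNR2, so its gap to MT-RNR1 is narrower. For MT-TW relative to MT-ND2 the interval, 0.233 to 1.17, included equal levels. A tRNA gene is shorter than a typical sequenced fragment, and how fragments that span a tRNA and its neighbour were assigned was not given in the sources used here. Its part in the tRNA values was not tested.

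Nuclear genes of like length give a measure beside which the tRNA values can be read. There were 57 single-transcript nuclear genes of 59 to 75 nucleotides at 1 FPKM or more in a library, 33 of them miRNA and 19 snoRNA genes. Of these, 15.8% were at least 1.5-fold lower in DOX(-) and 12.3% at least 1.5-fold higher, with a median log2 ratio of -0.26. Among the 22 mitochondrial tRNA genes, 17 were lower and 1 was higher. Pooled over the nuclear genes, 813 fragments in DOX(-) and 1015 in DOX(+) gave a ratio of 0.895 (0.815 to 0.982), an interval that lies above that of the tRNAs. Of the 57, only 4 had at least 50 fragments in DOX(-). A miRNA gene among them held 383 of the pooled fragments in DOX(-) and 512 in DOX(+) (ratio 0.836, 0.730 to 0.956). The others of the 4 had ratios of 1.02, 1.09 and 1.26, so the pooled value rests largely on 1 gene.

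The tRNA genes of the - strand held far fewer fragments than those of the + strand. The 14 tRNA genes of the + strand were all at least 1.5-fold lower in DOX(-), with a median log2 ratio of -1.20 and a pooled ratio of 0.509 (0.479 to 0.541). The 8 of the - strand held 60 fragments in DOX(-) and 96 in DOX(+), and 3 were lower and 1 was higher by the same rule. Their pooled ratio was 0.698 (0.497 to 0.974), and the median log2 ratio was -0.55. The pooled intervals of the strands overlap. Most + strand tRNA fragments belong to MT-TM and MT-TL1, which also had the highest ratios of the + strand tRNAs. Leaving them out therefore lowers the pooled ratio of the + strand by construction, to 0.377 (0.337 to 0.421). No like removal was made on the - strand, so that value cannot decide whether the strands differ. MT-TE, for glutamic acid, was the most abundant of the - strand, with 22 fragments in DOX(-) and 41 in DOX(+) (ratio 0.599, 0.340 to 1.03). The others were MT-TP, for proline (7 and 15 fragments in DOX(-) and DOX(+)), MT-TQ, for glutamine, and MT-TY, for tyrosine (7 and 12 each), MT-TA, for alanine (4 and 6), MT-TN, for asparagine (3 and 4), MT-TS1, for a second serine codon group (2 and 5), and MT-TC. Each of these but MT-TC had an interval that included equal levels, as did that of MT-TE. The labels name an NEB Ultra RNA kit and not whether strand was kept, and without strand, reads of a - strand gene cannot be told from reads of the + strand precursor that runs through it. The same holds for MT-ND6.

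**Figure D3:**
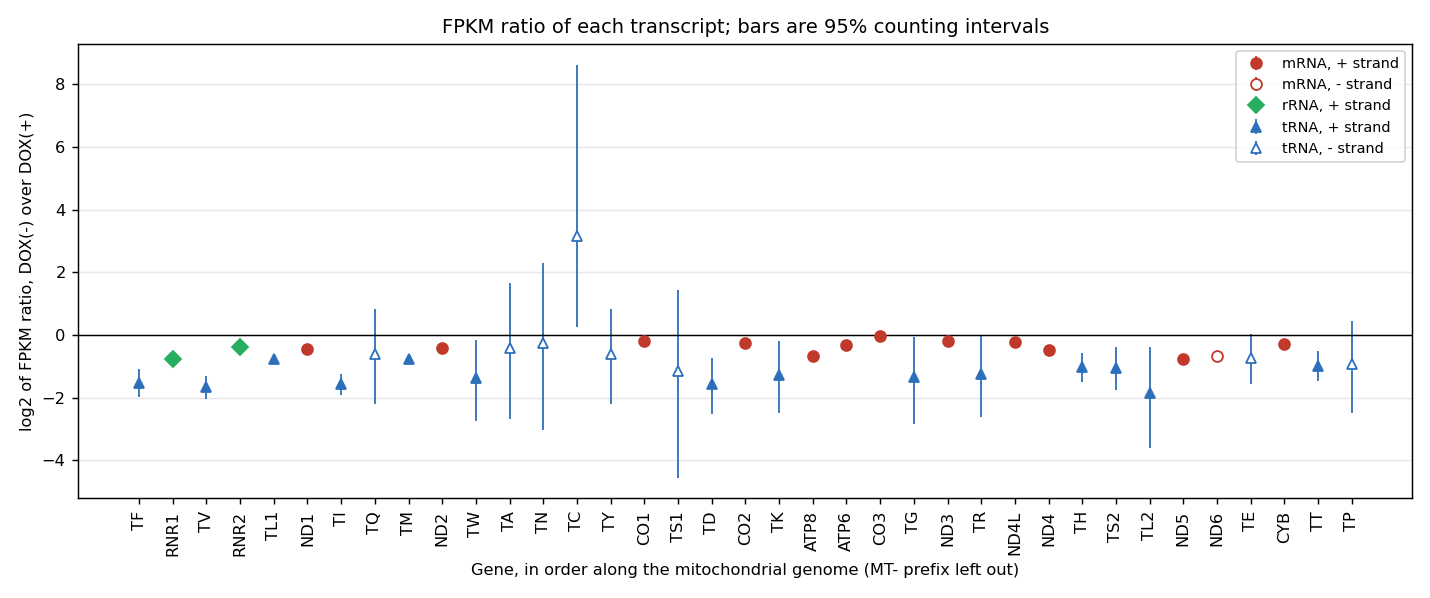
Log2 of the FPKM ratio, DOX(-) over DOX(+), for the 37 transcripts in order along the genome, with 95% counting intervals as bars (hidden by the symbol where narrow), 1 library per condition. Filled symbols are + strand genes and open symbols - strand genes. All + strand genes lie below 0, and MT-TC, with 8 fragments in DOX(-) and 1 in DOX(+), lies above it with the widest upward bar.

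Along the genome the ratios showed no steady trend. Over the 13 mRNAs, the log2 ratio and the start position had a Pearson correlation of -0.22 and a Spearman correlation of -0.24, and over the 14 tRNAs of the + strand these were 0.16 and 0.18. Members share 1 library per condition and are not independent, so these values are descriptions. Neighbours could differ widely: MT-TV at 0.314 lies between MT-RNR1 at 0.591 and MT-RNR2 at 0.767, and MT-CO3 at 0.973 follows MT-ATP6 at 0.808 and MT-ATP8 at 0.635. MT-ND5 was lower relative to MT-ND4, the preceding mRNA, by a factor of 0.818 (0.806 to 0.830). Among the mRNAs, more abundant ones tended to have ratios nearer to 1, with a Pearson correlation of 0.55 and a Spearman correlation of 0.59 between the log2 ratio and the mean log2 FPKM (n = 13 mRNAs), both taken from the same values. Over the 14 tRNAs of the + strand the same measure had the same sign, at 0.53 and 0.38. Over all 22 tRNAs, with the - strand genes of few fragments included, it was -0.35 and -0.41. With GC content the Pearson and Spearman correlations were 0.31 and 0.31 over the mRNAs and 0.40 and 0.54 over the tRNAs. For the 14 tRNAs of the + strand they were 0.36 and 0.34. Across all 37 members, which mix the classes, they were 0.47 and 0.59. With length they were -0.19 and -0.10 over the mRNAs, and 0.22 and 0.51 over all 37 members.

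Copies of mitochondrial DNA in the nuclear genome can take reads from the mitochondrial genes, and 11 of the 12 copies at 1 FPKM or more were lower in DOX(-), 8 with counting intervals below 1. Of the 11488 nuclear genes tested, 6116 were lower. Of 407 listed nuclear genes and pseudogenes named after mitochondrial genes, 12 reached that level in a library, and 7 of these lie in 1 stretch of chromosome 1, at 629062 to 634922 (GRCh38). MTATP6P1 was at 1493 FPKM in DOX(-) against 2225 in DOX(+), or 66.5% and 80.1% of MT-ATP6. MTND2P28 was at 1368 FPKM in DOX(-) against 1587 in DOX(+), or 45.1% and 39.0% of MT-ND2. The others were each at 3.12% of their mitochondrial gene or less. The ratio of MTATP6P1, 0.671 (0.658 to 0.684), was below that of MT-ATP6, and that of MTND2P28, 0.862 (0.847 to 0.877), was above that of MT-ND2. When the fragments of the copies were added to their genes, the ratio was 0.747 (0.738 to 0.756) for MT-ATP6 and 0.778 (0.770 to 0.785) for MT-ND2. MT-ATP8, whose copy MTATP8P1 had 13 fragments in DOX(-) and 16 in DOX(+), kept a ratio of 0.635. The values of MT-ATP6 and MT-ND2 are uncertain to this extent, since near-identical copies can divide their reads. MTND5P11, MTND4P12, MTCO1P12 and MTCO3P12 had ratios of 0.565, 0.719, 0.874 and 0.987, against 0.585, 0.715, 0.877 and 0.973 for MT-ND5, MT-ND4, MT-CO1 and MT-CO3. MTRNR2L12 had a ratio of 0.893, and its interval, 0.777 to 1.03, lay above the 0.767 of MT-RNR2. MTCO2P12 and MTCO2P2 were at 0.714 (0.537 to 0.944) and 0.709 (0.593 to 0.845), against 0.834 for MT-CO2, and MTND1P23 at 0.704 (0.613 to 0.808), against 0.739 for MT-ND1. MTATP8P1 was at 0.908 (0.402 to 2.01), against 0.635 for MT-ATP8. MTCO1P40 was the copy with a higher level in DOX(-), with 11 fragments in DOX(-) and 6 in DOX(+) (2.05, 0.694 to 6.75).

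**Figure D4:**
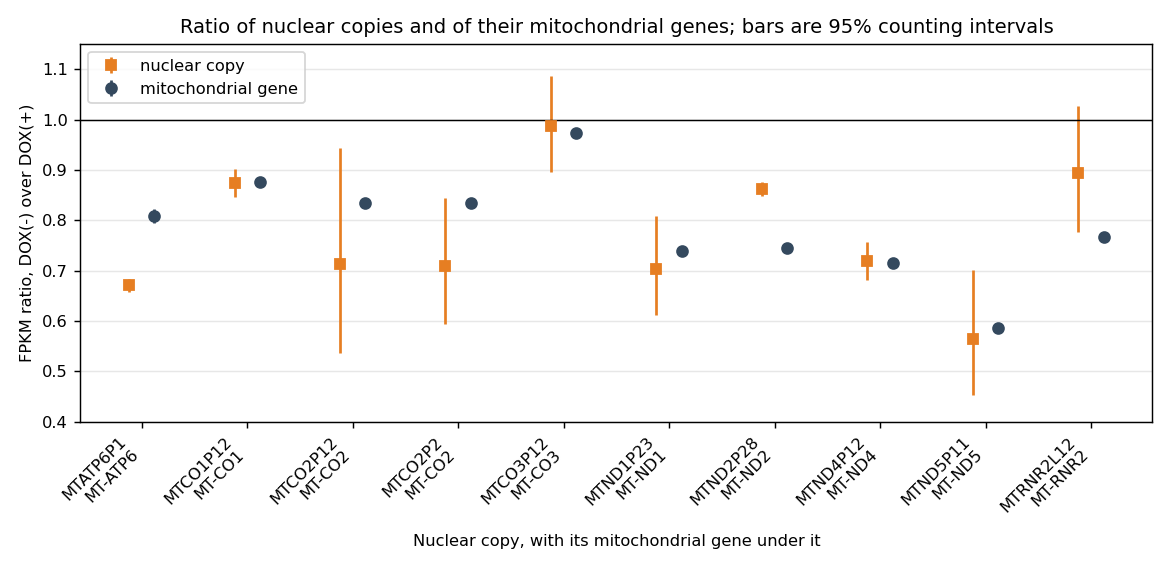
FPKM ratio, DOX(-) over DOX(+), of the nuclear copies with at least 50 fragments in DOX(-) (squares) and of the mitochondrial gene each is named after (circles), with 95% counting intervals as bars and 1 library per condition. MTATP6P1 at 0.671 and MTND2P28 at 0.862 lie apart from MT-ATP6 at 0.808 and MT-ND2 at 0.745, the interval of MTRNR2L12 lies above MT-RNR2 at 0.767, and the interval of MTND5P11 at 0.565 covers the value of MT-ND5.

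Nuclear genes that serve mitochondrial transcripts were read beside the share of all nuclear genes past the same rule. Of 11 tested genes of mitochondrial transcription and DNA maintenance, 0 passed the 1.5-fold rule in either direction, against 3.89% of the 11488 nuclear genes tested that were lower and 3.11% that were higher, and 8 of the 11 had a log2 ratio below 0, with a median of -0.04. In lists this short, a count of 0 is near that share. TFB2M, which starts transcription together with TFAM and the polymerase POLRMT, was at 12.9 FPKM in DOX(-) against 18.6 in DOX(+) (log2 ratio -0.50), and TFAM at 10.6 FPKM in DOX(-) against 14.8 in DOX(+) (-0.44). POLG, the DNA polymerase of the organelle, was at 5.38 FPKM in DOX(-) against 4.43 in DOX(+) (0.23), and MTERF3 at 14.3 FPKM in DOX(-) against 13.1 in DOX(+) (0.12). Of 35 tested genes of RNA processing, modification and stability, again 0 passed in either direction, and 21 were below 0, with a median of -0.10. Of the 11488 nuclear genes tested, 6116 were below 0, with a median log2 ratio of -0.02. Factors with log2 ratios further from 0 than the median of -0.31 over the mitochondrial mRNAs lay on both sides of 0. More of them lay below 0 than above it. Among those named here, TFB2M, TFAM, TRMT10C and FASTKD5 were below 0, and HSD17B10 and TBRG4 were above it. TRMT10C and HSD17B10, subunits of mitochondrial RNase P, had log2 ratios of opposite sign. TRMT10C was at 18.6 FPKM in DOX(-) against 26.9 in DOX(+) (-0.51), and HSD17B10 at 84.9 FPKM in DOX(-) against 62.7 in DOX(+) (0.43). TBRG4, of the FASTK family of RNA-binding proteins, had 12.4 FPKM in DOX(-) against 8.91 in DOX(+) (0.44), and FASTKD5, of the same family, had 15.6 FPKM in DOX(-) against 20.9 in DOX(+) (-0.41).

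The nuclear subunits of the same complexes had a median log2 ratio near 0, below 0 for about as many as above it. Of 73 tested subunits of complexes I, III, IV and V, 2 were at least 1.5-fold lower in DOX(-) and 1 was higher, near the 3.89% and 3.11% of all nuclear genes tested. The log2 ratio was below 0 for 36 of the 73, with a median of 0.00244, beside 6116 of the 11488 nuclear genes tested. The members past the rule were COX7C of complex IV (3.34 FPKM in DOX(-) against 8.25 in DOX(+), log2 ratio -1.09), NDUFC2 of complex I (7.55 FPKM in DOX(-) against 13.2 in DOX(+), -0.73) and NDUFB8 of complex I (17.9 FPKM in DOX(-) against 11.5 in DOX(+), 0.60). By complex, the nuclear medians were 0.01 for complex I, 0.07 for complex III, -0.03 for complex IV and -0.01 for complex V, beside -0.44, -0.28, -0.19 and -0.48 for the mitochondrial mRNAs of the same complexes. In complex III, where 0 of 9 passed the rule, the 3 widest differences were all higher in DOX(-). CYC1, cytochrome c1, was at 72.1 FPKM in DOX(-) against 55.0 in DOX(+) (0.38), UQCR11 at 25.8 FPKM in DOX(-) against 20.1 in DOX(+) (0.35) and UQCRC2 at 57.9 FPKM in DOX(-) against 45.6 in DOX(+) (0.34). The next, UQCRB, was lower, at 11.6 FPKM in DOX(-) against 14.4 in DOX(+) (-0.29). In complex V, where 0 of 16 passed, ATP5F1B, the catalytic beta subunit of ATP synthase, was at 125.2 FPKM in DOX(-) against 91.9 in DOX(+) (0.44), and ATP5F1A, its alpha subunit, at 17.1 FPKM in DOX(-) against 23.5 in DOX(+) (-0.44).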

How the data were processed

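Total RNA of 1 culture per condition was sequenced. The deposited values are FPKM, fragments scaled to transcript length and library size, per the file headers. Tools listed by the submitters' processing notes, without their role, are edgeR, StringTie 1.3.4b, HISAT2 2.1.0 and CASAVA 1.8, beside hg38 and GRCh38 as builds. Members were the rows with a mitochondrial locus. All 37 had 1 transcript in GENCODE release 29, of the same length as the deposited locus, and this annotation gave their strands. Library totals were recovered from the deposited FPKM as the whole number that made FPKM times length whole over single-transcript genes, and at these totals every member came out whole within 0.001 fragment (99.3% and 99.4% of all single-transcript genes above 0 within 0.02). Ratios are DOX(-) over DOX(+) on plain FPKM. Their 95% intervals are exact conditional (Clopper-Pearson), except that those of 1 gene relative to another use a normal approximation on the log scale. Fragments carry no molecular identifiers, so intervals cover counting error only. At a length of 70 nucleotides, 3 fragments equal 2.59 FPKM in DOX(-) and 2.31 FPKM in DOX(+). Log2 ratios and size rules use a pseudocount of 1 FPKM, which pulls low genes towards 0, over genes reaching 1 FPKM in DOX(-) or DOX(+). The ratio and interval code was tested on simulated data. Members, gene lists and rules were chosen with earlier results of these data known. In each gene list, members past 1.5-fold and otherwise the 4 largest differences at 2 FPKM or more could be named. CD3D, CD3E and the other markers at 0, CTSG, ELANE and MPO were named as label checks. Scripts ran in Python 3.11.15 with scipy 1.17.1 and pandas 2.3.3.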

Additional observations from a re-analysis of the deposited data

How the results depend on the processing

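With 1 library per condition no value has a replicate check, and 15 of the 22 tRNA genes have under 50 fragments in DOX(-). No paired analysis was possible because each condition has 1 library and the labels give no replicate numbers. Of the 13 alternatives to the deposited scale, only the 4 rescalings and the addition of nuclear copies could change the sign of a member. In these, 36 members stayed below 0 and MT-TC stayed above it. The other alternatives could not change a sign and are no check of it. The mRNA median log2 ratio was -0.29 with median-of-ratios scaling, -0.28 with trimmed-mean scaling, -0.38 scaled to the nuclear FPKM total, -0.33 scaled to nuclear fragments, -0.35 without overlapping members and -0.36 with fragments of nuclear copies added. The rRNA median was -0.55, -0.55, -0.64 and -0.59 under the same 4 scalings. The last scaling and the addition of copies were chosen after seeing the data. The median of + strand tRNAs was -1.30 with a pseudocount of 0.1 FPKM and -1.31 with none. A 2-fold rule left 11 members lower, and without overlapping members, MT-TC among them, 0 were higher. Scaled to the nuclear FPKM total, the median of 46 transcription and processing factors was -0.13, against -0.07 as deposited. The shares of all genes lower and higher were 7.64% and 5.48% with a pseudocount of 0.1, 7.99% and 5.63% with none, 1.20% and 0.833% at 2-fold, and 1.18% and 0.892% without the low-value filter.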
